A study of Mus musculus with 4 samples.

Results

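Trh, Pla2g1b, Mylpf, Dse and Cyct are 5 protein-coding genes that lay among the steepest differences toward lower signal in outgrowths of Tip110-/- mouse blastocysts. They were chosen from these same arrays for that difference, 5 of the 30142 genes with a row in the deposited table, so their difference between genotypes is given as a description and without a test. Each gene matched exactly 1 row of the table whose platform annotation held no other symbol. Tip110 is the protein of the gene Sart3, a recycling factor of the spliceosome.

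The study cultured blastocysts, flushed at 3.5 days post coitum from intercrosses of Tip110+/- mice, one by one in knockout serum replacement medium for embryonic stem cells. After 4 to 6 days the attached outgrowths, in which spreading trophoblast surrounds descendants of the inner cell mass, were lysed without treatment and genotyped. RNA was measured on Affymetrix whole-transcript mouse arrays, with 2 samples per genotype, wild-type or Tip110-/-. Replicate 1 of either genotype pooled 3 outgrowths and replicate 2 came from 1 outgrowth alone, so a pool averages over embryos and a single outgrowth does not. Wild-type samples yielded 248.7 and 178 pg of RNA per outgrowth and Tip110-/- samples 55 and 144 pg, less in both, and RNA yield and genotype cannot be told apart. Values are log2 signals as deposited. The median gene of the wild-type arrays was at 4.21 and 4.22, and that of the Tip110-/- arrays at 4.45 and 4.32.

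The 5 genes belong to unrelated pathways and are best known from differentiated tissues. Trh encodes the precursor of thyrotropin-releasing hormone, a short peptide of hypothalamic neurons that makes the pituitary release thyrotropin. Pla2g1b encodes the secreted phospholipase A2 of pancreatic juice, which cuts a fatty acid from phospholipids. Mylpf encodes the regulatory light chain of myosin in fast skeletal muscle. Dse encodes dermatan sulfate epimerase, which turns glucuronic acid of chondroitin sulfate chains into iduronic acid and so makes dermatan sulfate. Cyct encodes the cytochrome c of male germ cells, a counterpart of the somatic cytochrome c that carries electrons in the respiratory chain and can start the apoptosome.

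The sequences before the annotated starts are shown because they are where these 5 loci, which differed together between the genotypes, can be compared directly. Each is the 250 bases before the start, 5′ to 3′, from RefSeq on GRCm38.p6, and all 5 genes had an entry. Capitals mark matches on either strand to a TATA box (TATAAA), a GC box (GGGCGG), an E-box (CANNTG), the octamer bound by POU factors (ATGCAAAT), a SOX motif (CATTGT), an ESRRB motif (AAGGTCA) or the core of the cyclic AMP response element (TGACG).
Trh, chr6:92244651-92244900, minus strand: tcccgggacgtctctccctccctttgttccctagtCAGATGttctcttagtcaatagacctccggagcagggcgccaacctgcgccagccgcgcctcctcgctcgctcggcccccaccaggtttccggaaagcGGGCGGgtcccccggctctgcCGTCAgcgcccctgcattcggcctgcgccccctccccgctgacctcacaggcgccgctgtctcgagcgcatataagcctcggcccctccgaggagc
Pla2g1b, chr5:115465892-115466141, plus strand: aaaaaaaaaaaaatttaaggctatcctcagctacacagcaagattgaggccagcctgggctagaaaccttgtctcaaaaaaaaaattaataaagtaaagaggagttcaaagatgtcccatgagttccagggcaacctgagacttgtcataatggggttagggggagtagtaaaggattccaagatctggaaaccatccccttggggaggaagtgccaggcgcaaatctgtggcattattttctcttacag
Mylpf, chr7:127211358-127211607, plus strand: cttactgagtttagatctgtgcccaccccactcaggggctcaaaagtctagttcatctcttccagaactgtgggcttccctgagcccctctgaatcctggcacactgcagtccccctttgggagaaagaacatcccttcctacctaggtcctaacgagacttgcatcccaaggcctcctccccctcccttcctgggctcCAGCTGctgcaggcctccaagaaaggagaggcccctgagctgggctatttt
Dse, chr10:34207236-34207485, minus strand: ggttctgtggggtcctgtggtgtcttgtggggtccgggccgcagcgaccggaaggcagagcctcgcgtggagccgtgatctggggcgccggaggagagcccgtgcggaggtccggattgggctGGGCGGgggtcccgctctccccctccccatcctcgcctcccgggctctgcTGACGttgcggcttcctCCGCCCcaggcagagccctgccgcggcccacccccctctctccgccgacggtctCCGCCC
Cyct, chr2:76360454-76360703, minus strand: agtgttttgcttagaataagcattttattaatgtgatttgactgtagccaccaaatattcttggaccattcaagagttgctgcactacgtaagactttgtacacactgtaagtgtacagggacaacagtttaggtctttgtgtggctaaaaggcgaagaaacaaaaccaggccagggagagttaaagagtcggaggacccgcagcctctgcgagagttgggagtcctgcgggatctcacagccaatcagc

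The 5 upstream sequences were unlike each other in composition. GC content was 68.8% for Trh and 74.4% for Dse, and 89.0% and 95.4% of 32841 promoter windows of the same length had a lower value. Both held 25 CpG dinucleotides, against a median of 6 over all windows. Pla2g1b had 42.4% GC and 1 CpG, Cyct 45.6% and 6, and Mylpf 56.4% and 1. A GC box occurred 1 time before Trh and 3 times before Dse, and in 32.7% of all windows. The cyclic AMP response element core was found 1 time each before Trh and Dse, at 96 and 77 bases before the start, and in 17.8% of all windows. An E-box lay 215 bases before the start of Trh and 51 bases before that of Mylpf (66.2% of all windows hold 1 or more). The octamer, the SOX motif, the ESRRB motif and the TATA box had 0 matches in the 5 windows, and 1.6%, 10.7%, 4.08% and 12.4% of all windows held them. Only the exact letters given were searched, so near matches, such as TATAAG before Trh, were not counted. No matches in the printed windows overlapped. None of the motifs searched was found in all 5 sequences, and a match or its absence is a description of letters only.

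Trh had the largest difference of group means toward lower signal among the genes measured. The order rests on the mean over both kinds of sample. Among the 25 genes of largest mean difference, Gm22205 (-9.94), Pla2g1b (-8.70), Nr0b1 (-7.68) and Gm22935 (-6.62) differed more than Trh (-6.51) between pools. Between single outgrowths Nanog (-11.04) among them differed more than Trh (-10.45). Trh was at 11.64 in the wild-type pool and 15.00 in the single wild-type outgrowth, and 5.13 and 4.55 in the Tip110-/- pool and single outgrowth. Both wild-type arrays were high, both Tip110-/- arrays lay close to the median gene, and the groups were separated by 6.51 at their nearest values. The means were 13.32 ± 2.38 (SD, n = 2) and 4.84 ± 0.41 (SD, n = 2), a difference of -8.48 ± 1.18 (SE). Most of the spread came from the wild-type side, where the single outgrowth was higher than the pool by 3.37.

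Pla2g1b ranked 4 of 30142 toward lower signal. It was at 12.74 and 10.34 in the wild-type pool and single outgrowth and 4.04 and 4.33 in the corresponding Tip110-/- samples. The wild-type order was the opposite of that of Trh, with the pool higher than the single outgrowth, while the Tip110-/- arrays differed by 0.30. The difference between the means of 11.54 ± 1.70 (SD, n = 2) and 4.18 ± 0.21 (SD, n = 2) was -7.35 ± 0.88 (SE).

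Dse and Cyct had the narrowest spread of the 5 genes between Tip110-/- arrays. Dse was at 9.56 and 9.97 in wild-type against 3.67 and 3.64 in Tip110-/- outgrowths, a difference of -6.11 ± 0.37 (SE). Cyct was at 9.14 and 9.30 in wild-type against 3.92 and 3.82 in Tip110-/- outgrowths, a difference of -5.35 ± 0.34 (SE). For both genes the pool and the single outgrowth of a genotype were within 0.42, and both Tip110-/- values were below the median gene of their array.

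Mylpf had nearly equal signal in both wild-type arrays, 12.46 and 12.46, but not in the Tip110-/- arrays, where the pool was at 8.93 and the single outgrowth at 4.91. The pool thus kept a signal 4.48 above its array's median gene, and the single outgrowth was 0.59 above. Both Tip110-/- values lay below both wild-type values, as in 12.9% of all genes. The difference of the means was -5.55 ± 1.36 (SE). Without the Tip110-/- single outgrowth it was -3.53, and without the Tip110-/- pool -7.56.

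**Figure D1:**
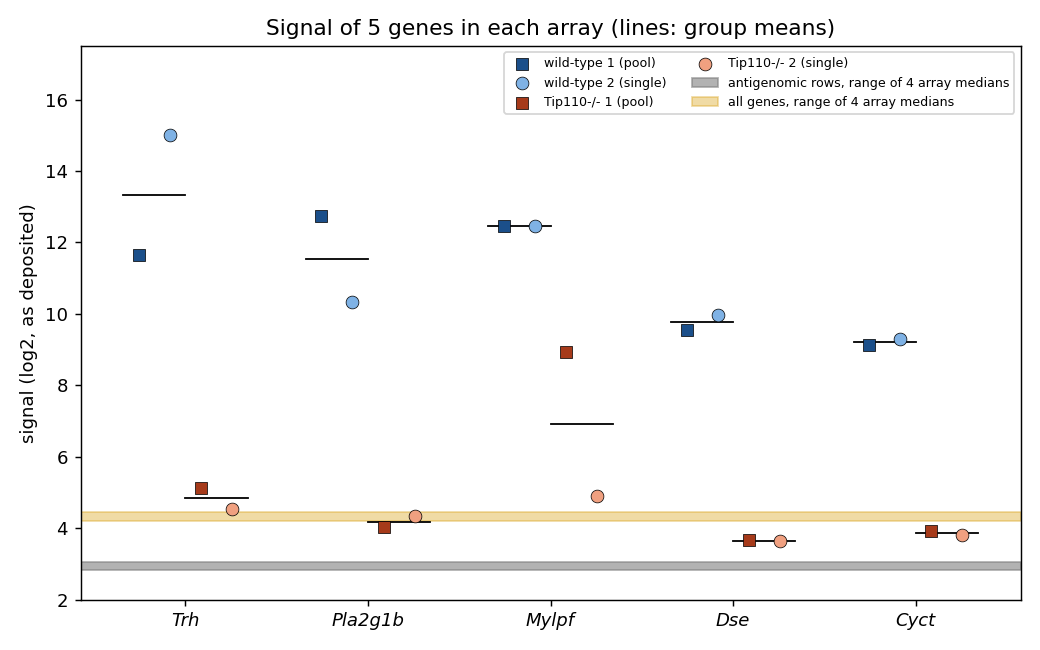
Signal on the log2 scale (vertical axis) of each gene in the 4 arrays, with squares for pools, circles for single outgrowths and lines for group means. Every Tip110-/- point lies below both wild-type points of its gene, as in 12.9% of all genes, and the 5 genes were chosen for a drop. The Mylpf value of the Tip110-/- pool, 8.93, stands apart from the other Tip110-/- values, which lie between 3.64 and 5.13.

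The Tip110-/- signals of Pla2g1b, Dse and Cyct lay within the range of the background probes. Of 23 antigenomic rows, whose probes match no mouse sequence, 4 in the pool and 3 in the single outgrowth were brighter than Pla2g1b. For Dse 5 and 4 were brighter and for Cyct 4 and 3. For Trh 0 and 2 were brighter, and for Mylpf 0 in both arrays. No antigenomic row was brighter than any of the 5 genes in a wild-type array. A difference that ends at background may understate the change, and the table carries no detection calls.

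All 5 genes were in the set of 905 genes that were at least 2-fold lower at an unadjusted p under 0.05 in limma, 3.00% of genes, and in the 25 genes lower by at least 5 log2 units, 0.0829% of genes. Both counts follow from how the genes were chosen. Over all genes 0 passed the adjusted threshold of 0.05 in limma, with 3817 at an unadjusted p under 0.05 and a smallest adjusted p of 0.154. With 2 arrays against 2, an exact permutation test of 1 gene cannot give a two-sided p below 0.333. Among the 25 genes the Tip110-/- arrays were within 1 log2 unit of each other in 12, the wild-type arrays in 11 and both in 4, a distance set after the values were seen. Dse and Cyct were among those 4. Trh, Pla2g1b, Dse and Cyct were among the 12 with Tip110-/- arrays close together.

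Comparing pool with pool and single with single outgrowth gave a drop in every case. The genes were chosen for the mean of these differences, so the drops are a description and not a replication. For Trh the difference was -6.51 between pools and -10.45 between single outgrowths, and for Mylpf -3.53 and -7.56. For Pla2g1b the order turned, at -8.70 between pools and -6.01 between single outgrowths. Dse gave -5.89 and -6.33 and Cyct -5.22 and -5.48.

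**Figure D2:**
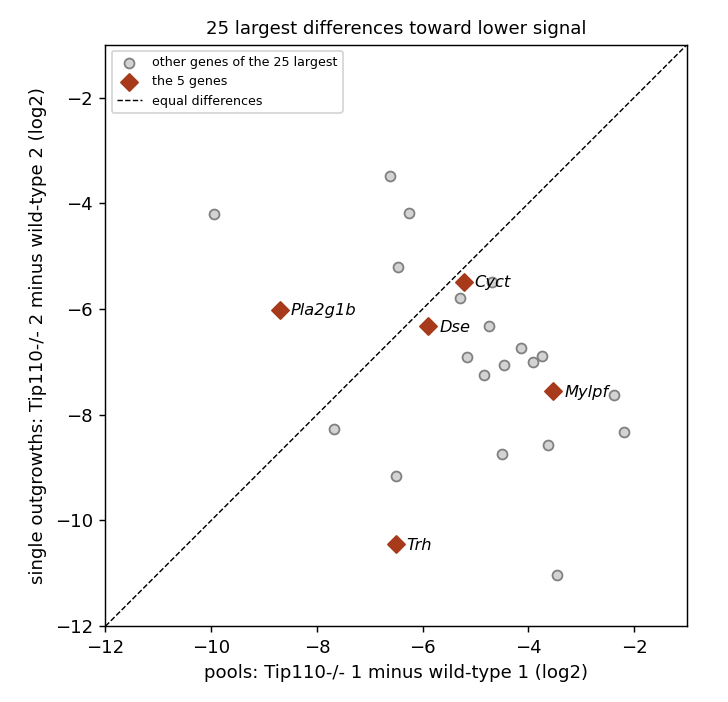
Difference between genotypes on the log2 scale for the 25 largest differences toward lower signal, between pools (horizontal axis) and between single outgrowths (vertical axis), with diamonds for the 5 genes and a dashed line where both are equal. Dse and Cyct lie near the line, Trh and Mylpf fall below it and Pla2g1b lies above it at -8.70 and -6.01.

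The contrast of single outgrowths with pools, with genotype as a second term, was not used to choose the genes and could be tested. None of the 5 genes passed (limma adjusted p = 1 for each), and 0 genes of all did, with 3.27% of genes at an unadjusted p under 0.05. The difference, single minus pooled, was 1.39 ± 1.07 (SE) for Trh, -1.05 ± 0.81 for Pla2g1b and -2.01 ± 1.10 for Mylpf. It was 0.19 ± 0.46 for Dse and 0.04 ± 0.44 for Cyct. With 1 array per genotype and kind of sample, whether the genotype difference itself depended on pooling could not be tested.

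Markers of the cell types in an outgrowth also differed between the genotypes. Of 12 epiblast markers, 10 were lower in Tip110-/- outgrowths at an unadjusted p under 0.05, where 3.67% of all genes were, and in 12 both Tip110-/- arrays lay below both wild-type arrays, against 12.9% of all genes. Their signals, added on the unlogged scale, summed to 18.73 and 18.89 (log2) for wild-type and to 17.09 and 15.40 for Tip110-/- arrays. Such a sum mostly follows its brightest gene, here Dppa5a, at 18.61 and 18.70 in wild-type against 17.06 and 15.35. The sum was higher in the Tip110-/- pool than in the Tip110-/- single outgrowth. Nanog, a core factor of the epiblast, was at 10.10 in the Tip110-/- pool and 4.15 in the single outgrowth, and Pou5f1 at 7.75 and 5.52, the same order as Mylpf. Klf4 (8.06 and 8.19), Esrrb (4.15 and 4.26) and Utf1 (8.80 and 9.23) had the opposite order. The remaining epiblast markers had the order of Mylpf. For 9 measured genes of a trophoblast marker list the wild-type sums were 17.84 and 17.15 against 18.07 and 19.32. The brightest of them, Prl2c2, was at 17.44 and 16.68 against 17.17 and 18.33 and did not pass. Hand1 and Ctsq did not pass either, and Prl3d1 of the list had no row. Of the 9 markers 6 were higher at an unadjusted p under 0.05, against 8.99% of all genes. The 6 include Prl5a1 and Prl8a9, prolactin genes of spongiotrophoblast, so the count is not of giant cells alone. That count was 3 with centred arrays and 2 without the wild-type single outgrowth, while the epiblast count stayed at 9 or 10. Both marker lists hold genes already known to differ in these arrays, so their counts are no independent evidence. Primitive endoderm markers had sums of 9.03 and 7.62 against 8.13 and 8.68, with 1 of 9 higher and 0 lower. The part of these markers in the differences of the 5 genes was not tested. In these whole outgrowths fewer cells of a type and less RNA per cell cannot be told apart. The Sart3 row itself, whose probes are not placed relative to the deletion by the labels, read 4.94 and 5.98 for wild-type against 4.28 and 4.54.

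The other genes of each pathway were examined to place the 5 genes among their partners. Over 8 lists, 162 of 173 entries other than the 5 genes had a row. At an unadjusted p under 0.05, 4 were lower, 2.47% against 3.67% of all genes, and 7 were higher, 4.32% against 8.99%. With each array centred on its median gene the counts were 7 lower and 2 higher. Without the Tip110-/- single outgrowth 1 was lower, and without the wild-type pool or single outgrowth 4 and 1 were higher. None passed the adjusted threshold (smallest limma adjusted p = 0.339). The median difference was 0.08, and 0.15 over all genes. The lowest value among the 162 was -1.70, above the values of all 5 genes. The 5 genes were chosen for large drops, so this gap follows from the choice and is no result.

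**Figure D3:**
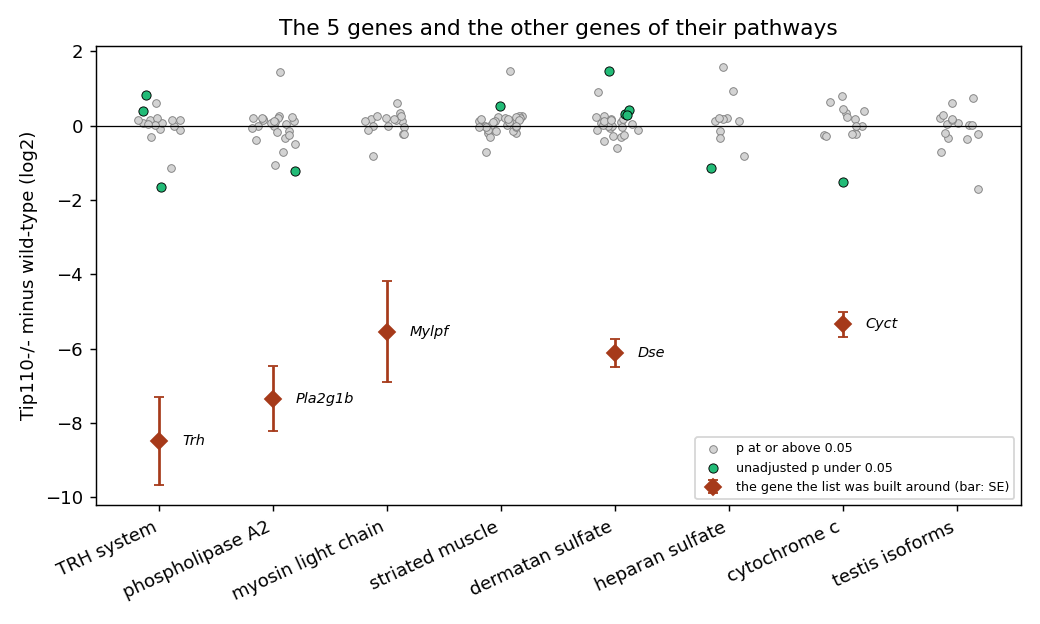
Tip110-/- minus wild-type on the log2 scale (vertical axis) for every measured gene of the 8 pathway lists, with red diamonds and SE bars for the 5 genes and green points for genes at an unadjusted p under 0.05. The other 162 genes lie between -1.70 and 1.59, and the 5 genes, which were chosen for large drops, between -8.48 and -5.35.

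In the thyrotropin-releasing hormone system, the 20 measured genes other than the precursor differed by -1.66 to 0.84. Their median was 0.08, with 1 lower and 2 higher at an unadjusted p under 0.05. The receptor gene Trhr was at 3.37 and 3.57 in wild-type against 3.75 and 3.96 in Tip110-/- outgrowths (0.39 ± 0.14, SE, limma adjusted p = 0.384), near background in all 4 arrays. The second receptor Trhr2 differed by 0.03 and the degrading ectoenzyme Trhde by 0.22, both also near background. Pgpep1, a cytosolic enzyme that removes the hormone's first residue, differed by 0.15. Qpctl, a Golgi enzyme that can form that first residue, was at 6.87 and 6.18 in wild-type against 5.56 and 4.17 in Tip110-/- outgrowths (-1.66 ± 0.56, SE, limma adjusted p = 0.369). Tshb, the thyrotropin beta subunit, was at 3.91 and 4.26 and at 5.07 and 4.79 (0.84 ± 0.22, SE, limma adjusted p = 0.339). The unadjusted p was no longer under 0.05 without the wild-type pool for all 3 of these genes, without either single outgrowth for Trhr, and without the Tip110-/- single outgrowth for Qpctl. Trhr also lost it with quantile normalization, centring or cyclic loess.

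Among 26 other genes of phospholipase A2 and the use of its products the median was 0.05, with 1 lower and 0 higher. Their differences ran from -1.21 to 1.44. The highest was that of the secreted Pla2g5, at 8.95 and 6.55 in wild-type against 8.04 and 10.33 in Tip110-/- outgrowths, which did not pass. Lpcat1, which puts fatty acids back onto lysophospholipids, was at 6.12 and 6.98 in wild-type against 5.56 and 5.11 in Tip110-/- outgrowths (-1.21 ± 0.42, SE, limma adjusted p = 0.373), and it was no longer at an unadjusted p under 0.05 without the wild-type single outgrowth or either Tip110-/- array. Pla2g10, another secreted enzyme, was at 4.49 and 6.04 against 4.29 and 4.12 and did not pass. The receptor Pla2r1 differed by 0.21, the secreted Pla2g12a by 0.14 and the cytosolic Pla2g4a by 0.24, and none of these passed. Their values were between 3.73 and 4.67 in all arrays, near background.

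The other 18 genes of light chains, their kinases and nonmuscle myosin differed by -0.81 to 0.62. Of these, 0 were lower and 0 higher at an unadjusted p under 0.05 (median 0.15). Myl1, the essential light chain of fast muscle, differed by 0.14, Myl2 of slow and cardiac muscle by 0.26 and Myl9 of smooth muscle by -0.21. These light chains were between 3.40 and 4.45 in the 4 arrays, near background, where a drop could not be seen. Of the light chains of nonmuscle cells, Myl12b was at 11.50 and 11.36 against 10.52 and 10.72 and Myl12a at 8.59 and 8.78 against 8.62 and 9.43, and neither passed. In the striated muscle list 1 of 30 genes was higher and 0 were lower (median 0.11). It was Myf6, a myogenic factor at 3.07 and 2.95 against 3.71 and 3.39 (0.54 ± 0.13, SE, limma adjusted p = 0.339), which lost this mark without the wild-type single outgrowth. The myogenic factors Myod1, Myog and Myf5 were between 3.21 and 3.97 in the 4 arrays, so these factors of skeletal muscle were near background where Mylpf was high. Tropomyosin genes of the same list, which many cell types express, were not: Tpm1, Tpm2 and Tpm3 were between 7.59 and 12.82.

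Around Dse, 4 of 26 genes of chondroitin and dermatan sulfate synthesis were higher at an unadjusted p under 0.05 and 0 were lower (median 0.05). Over all genes 8.99% were higher and 3.67% lower. Ust, a sulfotransferase that acts on iduronic acid, was at 5.80 and 5.42 in wild-type against 6.55 and 7.64 in Tip110-/- outgrowths (1.48 ± 0.49, SE, limma adjusted p = 0.365). The chondroitin sulfotransferases Chst3 and Chst11 differed by 0.42 and 0.32 and the proteoglycan core Epyc by 0.30, all from values near background. These 3 lost the unadjusted mark with quantile normalization, centring or cyclic loess and without either wild-type array. Without the Tip110-/- pool all 3 lost it too, and without the Tip110-/- single outgrowth Chst11 and Epyc did. Ust lost it with centring and without either wild-type array or the Tip110-/- single outgrowth. Dsel, the second epimerase, was at 4.60 and 4.90 against 4.27 and 4.38 and did not pass (-0.42 ± 0.20, SE). It was at an unadjusted p under 0.05 with quantile normalization (-0.55), centring (-0.59) and cyclic loess (-0.56). The dermatan sulfotransferase Chst14 differed by 0.03, with values near background in all arrays. In the heparan sulfate list 1 of 11 genes was lower, the sulfotransferase Hs6st1 at 6.73 and 6.27 against 5.48 and 5.23 (-1.15 ± 0.33, SE, limma adjusted p = 0.343), and it lost this mark without the wild-type pool or the Tip110-/- single outgrowth.

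Cycs, the somatic cytochrome c gene, was at 15.54 and 15.13 in wild-type against 15.25 and 14.90 in Tip110-/- outgrowths (-0.26 ± 0.30, SE) and did not pass (limma adjusted p = 0.658). Of 15 measured genes of cytochrome c, its respiratory partners and the apoptosome, Cycs included, 1 was lower and 0 higher. It was Cyc1, the cytochrome subunit that hands electrons to cytochrome c, at 13.00 and 12.35 against 11.45 and 10.89 (-1.51 ± 0.52, SE, limma adjusted p = 0.373), which was no longer at an unadjusted p under 0.05 without the wild-type pool, without either Tip110-/- array or with the replicate block. Hccs, which attaches haem to cytochrome c, differed by 0.63 and Apaf1, the apoptosome scaffold, by 0.34, and neither passed. In the list of testis isoforms of metabolic enzymes and their somatic counterparts, 0 of 16 were lower and 0 higher. Of its testis isoforms, Cox6b2 was at 9.51 and 9.25 in wild-type against 8.42 and 8.93, and Cox7b2 at 9.39 and 8.31 against 5.34 and 8.95. Germ-cell markers had mixed levels, and of 8 measured 2 were higher, Tnp1 and Prm1, and 0 lower at an unadjusted p under 0.05. The shares over all genes were 8.99% higher and 3.67% lower. The germ-cell RNA-binding gene Dazl was at 8.61 and 11.56 in wild-type, with the Tip110-/- pool between these values and the Tip110-/- single outgrowth at 7.10, and the meiotic gene Sycp3 at 7.19 and 4.67 against 6.16 and 4.87. The spermatid genes Tnp1, Prm1 and Prm2 were between 3.19 and 4.06 in the 4 arrays, near background, while Cyct was at 9.14 and 9.30 in wild-type. Cyct and Cycs are related in sequence, and probe sequences were not used here, so shared hybridization was not tested.

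Genes next to the 5 loci differed by -1.72 to 1.75. By the order of the RefSeq table, 10 neighbours with a row were taken, 1 on each side. At an unadjusted p under 0.05, 3 of 10 were lower, against 3.67% of all genes, and 1 of 10 was higher, against 8.99%, and none passed the adjusted threshold. Both neighbours of Mylpf were lower, Septin1 at 7.30 and 6.37 against 5.34 and 4.87 (-1.72 ± 0.44, SE, limma adjusted p = 0.339) and Tbc1d10b at 7.09 and 7.88 against 6.04 and 6.19 (-1.36 ± 0.44, SE, limma adjusted p = 0.362). The gene models of Mylpf and Septin1 overlap, and whether their rows share probes was not tested. Rbsn beside Trh was higher, at 6.22 and 7.50 against 5.05 and 5.16 in wild-type (1.75 ± 0.50, SE, limma adjusted p = 0.343), and Prickle2 on its other side differed by 0.11. Calhm6 beside Dse was lower, at 3.79 and 3.56 against 4.04 and 4.56 (-0.62 ± 0.22, SE, limma adjusted p = 0.378). All values of Calhm6 were below the brightest antigenomic row of their array. The neighbours of Pla2g1b, Msi1 and Sirt4, differed by -0.28 and 0.37, and those of Cyct, Pde11a and Rbm45, by 0.15 and -0.19.

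**Figure D4:**
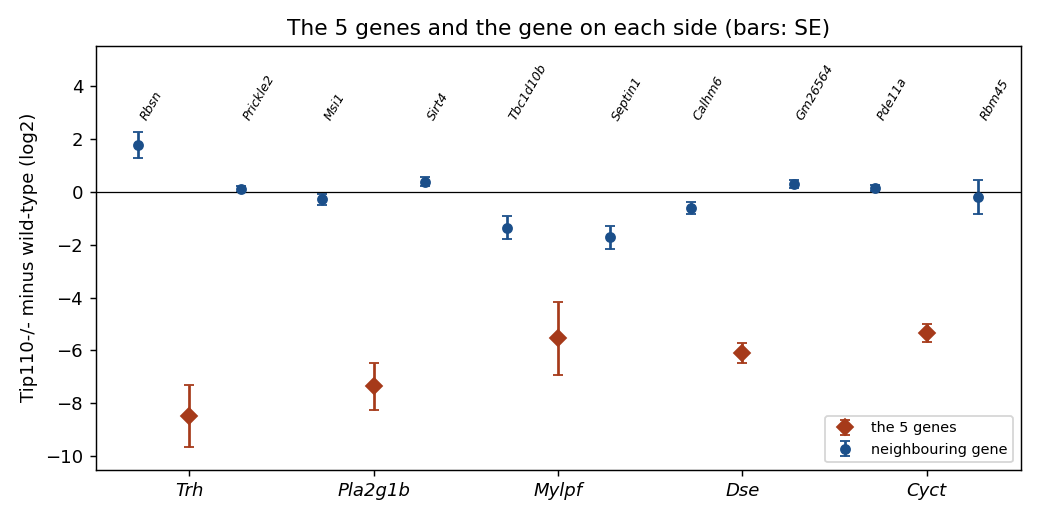
Tip110-/- minus wild-type on the log2 scale (vertical axis) for the 5 genes (red diamonds) and the nearest gene with a row on each side (blue circles, named above), with SE bars. The neighbours lie between -1.72 and 1.75, all above the 5 genes, which were chosen for large drops.

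The pattern over the 4 arrays split the 5 genes. Likeness was measured as the root mean square difference between log2 values centred on each gene's mean, and genes chosen this way share the genotype difference by construction. Nearest to Mylpf were Nacc1 and Sap30 (0.29 each), which were also intermediate in the Tip110-/- pool at 7.94 and 9.31 and low in the single outgrowth at 4.65 and 6.10, and Ifitm2 (0.48). Nearest to Cyct were Gsta4 (0.23), Cyp2b23 (0.25) and Cnpy2 (0.28). Nearest to Dse were Tdrd12 (0.36), Cyct (0.39) and Gsta4 (0.40), so Dse and Cyct were near each other. Nearest to Pla2g1b were Nr0b1 (0.88), Dse (1.18) and Gsta4 (1.26). Nearest to Trh among the genes compared were Tdrd12 (1.41), Tdgf1 (1.51) and Nr0b1 (1.58). Predicted genes, microRNAs, snoRNAs and pseudogenes were left out of the comparison. Among those left out, Tdgf1-ps1 was at 11.73 and 12.95 in wild-type against 5.22 and 3.80, a pattern that also resembled Trh. The distance is not scaled by the size of a gene's difference.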

How the data were processed

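The deposited table holds normalized log2 signals for 72688 rows in 4 columns. The tools named, per the submitters' processing notes, are Transcriptome Analysis Console and Affymetrix Expression Console, without versions. Normalization, genome build and log base are not given in the sources here; log2 was inferred from the range of values. Rows were named through the platform annotation, updated by Entrez ID through the RefSeq table of GRCm38.p6 (22818 of 30604 rows with 1 symbol). Where a gene had several rows, the row with the highest mean was kept, leaving 30142 genes. Rows with several symbols or none were left out.

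Genes were fitted in R 4.3.3 with limma 3.58.1 (lmFit, eBayes with an intensity trend, two-sided, Benjamini-Hochberg over all genes, threshold 0.05) on genotype alone, without a filter on signal. The code was tested on simulated data. The labels give 144 pg of RNA labelled per array and the design text 100 pg, and which holds is not known. The labels call the samples biological replicates, and with 2 arrays a group their number limits the precision.

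The 5 genes, the pathway lists and the marker lists were chosen with earlier results of these data known. Named are the 5 genes, their partners by role, pathway genes at an unadjusted p under 0.05, neighbours on each side, the 3 genes of most similar pattern (predicted genes, microRNAs, snoRNAs and pseudogenes left out) and Sart3, Pou5f1 and Nanog. Myod1, Myog, Myf5, Tnp1, Prm1, Prm2, Dazl, Sycp3, Cox6b2, Cox7b2, Tpm1, Tpm2 and Tpm3 were added from the lists after their values were seen. So were Pla2g5, Hand1, Ctsq, Prl5a1 and Prl8a9. Alternatives were other normalizations, variance priors, array weights, a filter, a replicate term and each array left out. Tables and plots used Python 3.11.15, pandas 2.3.3 and matplotlib 3.10.9.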

Additional observations from a re-analysis of the deposited data

How the results depend on the processing

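The 5 genes were chosen for a large drop, and the smallest gap between their groups was 3.53 log2 units (Mylpf). A kept sign was thus fixed in advance and is no support. The differences of the 5 genes kept their sign under all 13 alternatives (9 other settings and 4 with an array left out). Their median of -6.11 lay between -7.21 and -5.90 with an array left out. Over the 9 other settings the ranges were, for example, -8.65 to -8.42 for Trh and -5.71 to -5.37 for Mylpf, while leaving out an array gave -10.16 to -6.80 for Trh, -8.55 to -6.15 for Pla2g1b, -7.56 to -3.53 for Mylpf, -6.32 to -5.90 for Dse and -5.43 to -5.27 for Cyct. No gene passed the adjusted threshold under any of the 13. With centred arrays 258 genes were higher at 2-fold in place of 460 and 1157 lower in place of 905, and with an array left out 381 to 883 were higher and 723 to 1159 lower. Pathway genes lower at an unadjusted p were 7 with centred arrays and 1 to 5 with an array left out. Those higher were 4 with quantile normalization, with cyclic loess and with the replicate block, 2 with centred arrays and with genes above the median gene only, and 1 to 8 with an array left out. Among markers, an alternative chosen after seeing the data, 3 of 9 trophoblast genes were higher with centred arrays and 2 to 6 with an array left out, and 9 to 10 of 12 epiblast genes were lower. Single pathway genes are thus weak: each of the 11 at an unadjusted p under 0.05 lost that mark in 1 to 10 alternatives, Chst11 in most and Tshb and Myf6 in 1 each. The causes were not tested, beyond fewer arrays or genes. The replicate number separates pools from single outgrowths, and replicate deviations of the genotypes correlated at -0.09 across genes, so the numbers were not taken as pairs. With the replicate block 939 genes were lower at 2-fold, against 905.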
